A study of Mus musculus with 9 samples.

Results

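The 10 genes described here are regulators of DNA methylation, several of which are recurrently mutated in human acute myeloid leukemia (AML). They are the methyltransferases *Dnmt1*, *Dnmt3a* and *Dnmt3b*, the maintenance cofactor *Uhrf1*, the dioxygenases *Tet1*, *Tet2* and *Tet3*, the isocitrate dehydrogenases *Idh1* and *Idh2*, and the chromatin regulator *Asxl1*. They were chosen by gene name and are 10 of the 55401 genes in the deposited tables. All 10 had enough reads to be tested in every comparison.

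The RNA came from mouse AML cells. Lineage-negative bone marrow cells of C57BL/6-Ly5.1 mice had been transformed with *Hoxa9* and *Meis1* (H9M cells) and marked as single clones with a lentiviral color code, so that all groups share these changes. A mix of the clones was transplanted into lethally irradiated C57Bl6/J mice together with helper bone marrow, and cKit+CD11bdim splenocytes of 1 color code were sorted. Total RNA was sequenced in 9 libraries, 3 per group. The pre-malignant group holds 3 clones, 33BC-D and 38BC-D as well as 43BC-D, of a single animal, mouse #15, which was taken at a pre-malignant state. The de novo expanded group holds these clones from the endpoint mice #17, #13 and #14, respectively, and the stably expanded group holds clone 34BC-D from the same 3 mice. Pre-malignant state and mouse #15 can therefore not be told apart, and the stably expanded libraries stand for 1 clone. There is no pre-malignant library of clone 34BC-D. In the stably expanded against the pre-malignant libraries, clone and state can thus not be told apart either. The labels link a column of the tables to its group but not to a mouse or clone. Libraries are thus numbered 1 to 3 within a group, and a number names no clone.

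DNA methylation in mammals is written mostly on cytosines followed by guanine (CpG). DNMT1, which UHRF1 brings to newly replicated DNA, copies the pattern to the daughter strand, whereas DNMT3A and DNMT3B place new marks. TET enzymes oxidize methylcytosine as a first step of its removal and need alpha-ketoglutarate, which IDH1 and IDH2 make from isocitrate. Mutant IDH enzymes in AML instead produce an oncometabolite that inhibits TET enzymes. ASXL1 is not an enzyme of this cycle but an adaptor of the deubiquitinase BAP1 on chromatin, and is mutated in the same diseases. The RNA-Seq data measure transcripts, not methylation or mutations.

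Each library had between 10379739 and 15551196 reads on genes. The share of reads on mitochondrial genes was 8.54% to 13.1%, and that on olfactory and vomeronasal receptor genes, which these cells are not known to use, was 0.00219% to 0.0186%. The 5 genes that the sort and the transformation predict, *Kit*, *Itgam* (CD11b), *Ptprc* (CD45), *Hoxa9* and *Meis1*, were read in all 9 libraries. *Kit* lay between 1937 and 3979 normalized counts. Of these 5, *Itgam* passed the test in the stably expanded against the pre-malignant libraries (log2 fold change 0.61, adjusted p = 0.0485 from limma), and *Kit* had lower counts in each stably expanded than in any pre-malignant library (-0.30, adjusted p = 0.0795). T cell markers were nearly absent, with a summed level over 6 genes of 7.24 to 41.9 normalized counts and 0 to 8 reads of *Cd3e*. B cell markers, summed over 7 genes, lay at 3042 to 3718 in the pre-malignant, 1039 to 3063 in the de novo expanded and 1188 to 1495 in the stably expanded libraries, mostly from *Ighm*, which ranged from 855 to 3286. Of these 7, 4 genes were called lower in the stably expanded than in the pre-malignant libraries, *Ighm*, *Igkc*, *Pax5* and *Ms4a1*, as were 216 of 13968 genes tested. The log2 fold change of *Ighm* was -1.48 (adjusted p = 0.000589 from limma). *Cd79b* went the other way, with a log2 fold change of 0.99 (adjusted p = 0.0796 from limma), and its groups overlapped. Erythroid markers, over 7 genes, summed to 253 to 484, 31.6 to 200.5 and 32.2 to 322, macrophage markers, over 7 genes, to 1201 to 2571, 745 to 3352 and 2388 to 3187, and platelet markers, over 5 genes, to 30.5 to 42.5, 18.2 to 29.8 and 29.0 to 34.9, respectively. In the latter list *Ppbp* and *Gp1ba* had at most 3 reads in every library. In these bulk samples, fewer cells of a type and less RNA per cell cannot be told apart.

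Gene positions are those of GRCm38.p6. Normalized counts per library are given below on 1 scale, as reads divided by size factors over all 9 libraries, with means ± SD (n = 3 libraries). Levels of different genes are compared only after division by the length of their merged exons (per kb). That length joins all annotated exons of a gene, used in these cells or not, and is 16.64 kb for *Dnmt3a* and 7.38 kb for *Dnmt1*. The order of the genes and their shares per kb depend on it. Log2 fold changes are from limma on log2(normalized count + 1) within the table of each comparison, with the standard error (SE), a 95% interval and a p-value adjusted over all genes tested. Called genes are those with an adjusted p below 0.05 whose level also differed 2-fold or more.

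Promoter sequences are shown for the members whose transcripts differed most clearly, since CpG is the letter pair on which these enzymes act. They are the 250 bases before a RefSeq start site on GRCm38.p6, from 5′ to 3′ on the strand of the gene, and no base of them lies in an exon annotated for the gene in the deposited tables. *Tet2* (chr3:133544391-133544640, minus strand) has 1 such window, and *Dnmt3a* (chr12:3806730-3806979, plus strand) has 3, of which the furthest 5′ is shown. CpG is in capitals.
Tet2: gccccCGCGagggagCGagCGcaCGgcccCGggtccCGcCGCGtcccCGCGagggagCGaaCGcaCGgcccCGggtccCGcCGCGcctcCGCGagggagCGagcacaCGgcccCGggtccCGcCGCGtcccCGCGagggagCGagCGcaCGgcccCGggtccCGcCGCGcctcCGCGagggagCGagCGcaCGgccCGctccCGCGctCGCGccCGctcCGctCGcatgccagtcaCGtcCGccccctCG
Dnmt3a: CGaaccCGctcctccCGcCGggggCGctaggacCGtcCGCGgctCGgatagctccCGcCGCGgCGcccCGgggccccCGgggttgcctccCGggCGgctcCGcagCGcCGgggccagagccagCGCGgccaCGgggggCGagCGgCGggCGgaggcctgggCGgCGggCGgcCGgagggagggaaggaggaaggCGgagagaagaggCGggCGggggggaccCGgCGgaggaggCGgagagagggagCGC
The *Tet2* stretch holds 51 CpG and that of *Dnmt3a* 38. Counted over the whole 300-base windows, which add 50 bases after the start site, *Tet2* had 57 CpG, more than 99.8% of the 32851 windows of that length in the table, whose median was 7. The *Dnmt3a* window shown had 46, more than 98.4% of all windows. The 10 members had 16 windows in all, with 2 to 57 CpG. Only 1 of the 16, the window of *Dnmt1* that lies furthest 5′, was below the median of all windows. Each member had at least 1 window with 13 or more CpG. These are counts of letters in the reference genome and not measurements of methylation.

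For *Uhrf1*, the window with a match to the binding motif of the E2F factors, which drive genes of DNA replication, is shown with the match in capitals (chr17:56304063-56304312, plus strand).
Uhrf1: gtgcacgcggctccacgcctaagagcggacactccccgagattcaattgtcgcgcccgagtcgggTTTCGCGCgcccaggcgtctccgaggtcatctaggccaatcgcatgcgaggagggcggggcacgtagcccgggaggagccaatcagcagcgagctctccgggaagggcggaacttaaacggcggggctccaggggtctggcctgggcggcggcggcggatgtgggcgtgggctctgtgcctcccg
The letters searched were TTTGGCGC and TTTCGCGC, on both strands. Of the 16 windows, 1 of 2 for *Uhrf1* and 1 of 3 for *Dnmt1* held a match, and none of the other members' windows did. Over all windows 0.813% held a match. No binding was measured here.

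**Figure D1:**
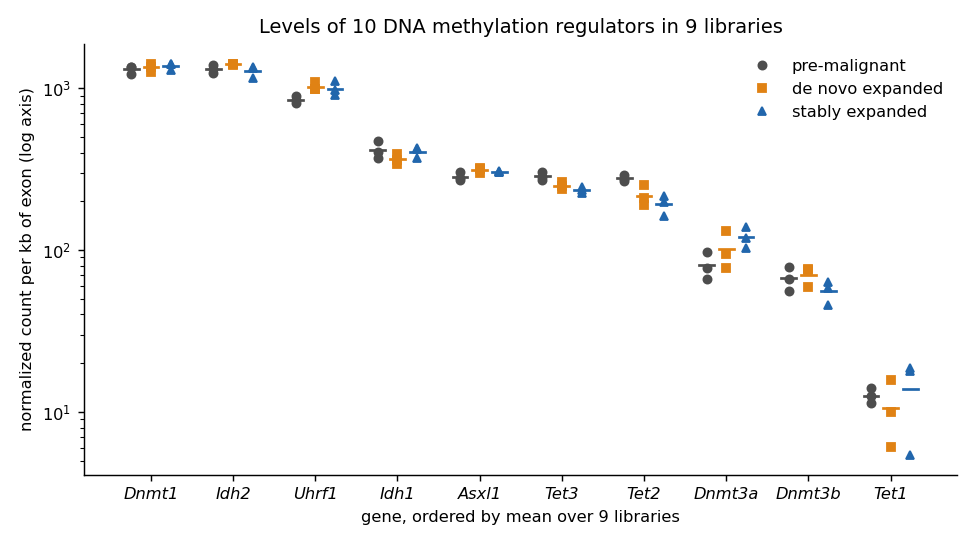
Normalized count per kb of merged exon (log axis) of the 10 genes in the 9 libraries, grouped as pre-malignant (circles), de novo expanded (squares) and stably expanded (triangles), with a bar at each group mean. *Dnmt1* and *Idh2* lie between 1164 and 1420 in all libraries, and *Tet1* lies between 5.41 and 18.6.

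The members spanned 2 orders of magnitude in level. Per kb, *Dnmt1* was highest, with a mean of 1342 ± 67.5 (SD, n = 9 libraries) normalized counts, followed by *Idh2* with 1337 ± 84.0 and *Uhrf1* with 956 ± 101. *Idh1* followed with 395 ± 40.6, then *Asxl1* with 300.3 ± 16.6, *Tet3* with 256 ± 25.4 and *Tet2* with 229 ± 43.9. *Dnmt3a* had 101 ± 25.03, *Dnmt3b* 64.2 ± 11.04 and *Tet1* 12.4 ± 4.72. Among the neighbours in this order, the ranges over the 9 libraries overlapped between *Dnmt1* and *Idh2*, *Asxl1* and *Tet3*, *Tet3* and *Tet2*, and *Dnmt3a* and *Dnmt3b*. These ranges also hold group differences. Within single libraries *Asxl1* was above *Tet3* and *Dnmt3a* above *Dnmt3b* in 8 of 9, *Tet3* above *Tet2* in 7, and *Dnmt1* above *Idh2* in 3. *Dnmt1* was above 97.8% of the 13960 genes with a mean of at least 10, and *Tet1* above 14.3%. The maintenance enzyme thus made up 89.9% ± 1.13 of the methyltransferase transcripts per kb in the pre-malignant, 88.7% ± 1.55 in the de novo expanded and 88.7% ± 1.14 in the stably expanded libraries. Among the TET transcripts, *Tet2* made up 48.3% ± 1.59, 45.3% ± 4.89 and 43.6% ± 4.77 and *Tet3* 49.5% ± 1.71, 52.5% ± 4.35 and 53.2% ± 3.61 in these groups, and *Tet1* 2.18% ± 0.169, 2.22% ± 1.05 and 3.20% ± 1.75. *Dnmt1* varied least over the 9 libraries, with 1.16-fold between lowest and highest, and *Tet1* most, with 3.43-fold.

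*Dnmt1* (ENSMUSG00000004099.16, chromosome 9 from 20907209 to 20959888, minus strand) did not differ detectably between the groups. Its normalized count was 9056, 10032 and 9907 in the pre-malignant libraries, compared with 10425, 9982 and 9325 in the de novo expanded and 10472, 9559 and 10343 in the stably expanded libraries. All 3 groups overlapped. Against the pre-malignant libraries the log2 fold change was 0.06 (SE 0.09, 95% interval -0.15 to 0.26) in the de novo expanded and 0.07 (SE 0.09, -0.12 to 0.26) in the stably expanded libraries, so that a 2-fold change lies outside both intervals. Under quantile normalization both turned negative, to -0.04 and -0.08.

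*Uhrf1* (ENSMUSG00000001228.14, chromosome 17 from 56303321 to 56323486, plus strand) was read more in each leukemic library than in any pre-malignant library. It had 3446, 3607 and 3826 normalized counts in the pre-malignant libraries, compared with 4636, 4212 and 4216 in the de novo expanded and 4694, 4161 and 3859 in the stably expanded libraries. Only a narrow gap separates the highest pre-malignant from the lowest stably expanded library. The log2 fold change was 0.28 (SE 0.09, 95% interval 0.08 to 0.49) in the de novo expanded libraries, with an unadjusted p of 0.0140 and an adjusted p of 0.384 from limma. In the stably expanded libraries it was 0.22 (SE 0.10, 0.01 to 0.43), with an unadjusted p of 0.0421 and an adjusted p of 0.178. Neither passed the test. The summed level of the cell cycle markers overlapped between the groups. These 18 genes summed to 60334 to 72019 normalized counts in the pre-malignant, 66996 to 82761 in the de novo expanded and 68940 to 81420 in the stably expanded libraries. Taken gene by gene, 18 of 18 were higher in the de novo and 17 of 18 in the stably expanded libraries, with median log2 fold changes of 0.24 and 0.22. The part of these markers in the values of *Uhrf1* was not tested. The ratio that follows takes *Mki67* alone, over 3 against 3 libraries, and cannot decide this question. Relative to the proliferation marker *Mki67*, the log2 ratio of *Uhrf1* moved by 0.07 and 0.05 in the de novo and stably expanded libraries (exact permutation test, two-sided, p = 0.9 and 0.7, n = 3). Relative to *Dnmt1* it moved by 0.23 (p = 0.1) and 0.15 (p = 0.3, same exact test), where 0.1 is the smallest p that 3 against 3 libraries can give.

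Among the de novo methyltransferases, *Dnmt3a* (ENSMUSG00000020661.15, chromosome 12 from 3806007 to 3914443, plus strand) was higher in the stably expanded than in the pre-malignant libraries. Its normalized count was 1627, 1107 and 1287 in the pre-malignant libraries, compared with 1572, 1288 and 2191 in the de novo expanded and 1987, 1725 and 2297 in the stably expanded libraries. All 3 stably expanded libraries lay above all pre-malignant ones, while the de novo expanded libraries overlapped both groups. Against the pre-malignant libraries, *Dnmt3a* was 1.503-fold higher in the stably expanded libraries (log2 fold change 0.59, SE 0.15, 95% interval 0.26 to 0.92, adjusted p = 0.0377 from limma), which passes the test but not the 2-fold limit. In the de novo expanded libraries the log2 fold change was 0.33 (SE 0.22, -0.18 to 0.84, adjusted p = 0.590). The stably expanded result lost its side of the threshold in 1 fit of all 9 libraries (adjusted p = 0.162), under quantile normalization (0.0539) and without pre-malignant library 2 (0.143) or 3 (0.0951) or stably expanded library 1 (0.0890) or 3 (0.0885), with a log2 fold change of 0.46 to 0.74 throughout.

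*Dnmt3b* (ENSMUSG00000027478.15, chromosome 2 from 153649450 to 153687730, plus strand) is the other de novo enzyme. It had 284, 339 and 402 normalized counts in the pre-malignant, 389, 385 and 300.3 in the de novo expanded and 296, 232 and 324 in the stably expanded libraries. All groups overlapped. The log2 fold change was 0.09 (SE 0.18) in the de novo expanded libraries, turning to -0.03 without pre-malignant library 1, and -0.26 (SE 0.18, adjusted p = 0.398 from limma) in the stably expanded libraries. The log2 ratio of *Dnmt3a* to *Dnmt3b* was 1.97 ± 0.477 in the pre-malignant, 2.21 ± 0.587 in the de novo expanded and 2.82 ± 0.0727 in the stably expanded libraries (SD, n = 3). The stably expanded libraries differed from the pre-malignant by 0.85, with p = 0.1 in the exact permutation test. Adjusted over the 21 ratio tests made, this p was 0.525.

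*Tet2* (ENSMUSG00000040943.12, chromosome 3 from 133463679 to 133545139, minus strand) had the smallest adjusted p-value of the members, and was lower in the stably expanded than in the pre-malignant libraries. Its normalized count was 4650.1, 4930.4 and 4491 in the pre-malignant libraries, compared with 3520.3, 4240.1 and 3210 in the de novo expanded and 2751, 3653 and 3346 in the stably expanded libraries. Each of the 6 leukemic libraries lay below each pre-malignant library. Against the pre-malignant libraries *Tet2* was 31.1% lower in the stably expanded libraries (log2 fold change -0.54, SE 0.11, 95% interval -0.78 to -0.29, adjusted p = 0.0182 from limma). In the de novo expanded libraries the log2 fold change was -0.35 (SE 0.12, -0.62 to -0.07), with an unadjusted p of 0.0195 and an adjusted p of 0.402, which does not pass. Both comparisons share the pre-malignant libraries. In the stably expanded libraries the adjusted p was 0.106 in 1 fit of all 9 libraries, 0.0552 without pre-malignant library 1 and 0.0840 without pre-malignant library 2, with a log2 fold change between -0.63 and -0.42 in all alternatives. Of the B cell markers given above, 6 of 7 were also lower there, and *Itgam* was higher. Their part in the differences of *Tet2* and *Dnmt3a* was not tested.

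*Tet3* (ENSMUSG00000034832.15, chromosome 6 from 83362373 to 83459084, minus strand), the TET enzyme with the highest mean level per kb, had 5065, 4698 and 4512 normalized counts in the pre-malignant libraries, compared with 4173, 3973 and 4391 in the de novo expanded and 4076, 3901 and 3744 in the stably expanded libraries. Here, too, no leukemic library reached the lowest pre-malignant one. The log2 fold change was -0.17 (SE 0.09, 95% interval -0.38 to 0.04, adjusted p = 0.515 from limma) in the de novo expanded and -0.28 (SE 0.09, -0.47 to -0.09, adjusted p = 0.0706) in the stably expanded libraries. Neither passed, although DESeq2 (adjusted p = 0.0328) and quantile normalization (0.0378) passed in the latter.

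*Tet1* (ENSMUSG00000047146.17, chromosome 10 from 62804570 to 62908996, minus strand) differed more within groups than between them. It had 193, 216 and 175 normalized counts in the pre-malignant libraries, compared with 93.4, 155 and 244 in the de novo expanded and 287, 83.6 and 277 in the stably expanded libraries. Single libraries of both leukemic groups lay below and others above all pre-malignant libraries. The 3 stably expanded libraries, among which library 2 was lowest, are of 1 clone. The log2 fold change of -0.33 (SE 0.34) in the de novo expanded libraries was 0.03 without de novo expanded library 1, and that of -0.04 (SE 0.39) in the stably expanded libraries was 0.54 without stably expanded library 2 and 0.13 with DESeq2 and edgeR.

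Because *Tet2* and *Tet3* make up nearly all TET transcripts, their sum was formed after these values were seen and is given as a description. Per kb, the summed level of *Tet1*, *Tet2* and *Tet3* was 592, 588 and 548 in the pre-malignant, 465, 499 and 469 in the de novo expanded and 426, 456 and 440.5 in the stably expanded libraries. Means were 576 ± 24.2, 478 ± 18.9 and 441 ± 14.9 (SD, n = 3), and the pre-malignant libraries did not overlap with the leukemic ones. The summed methyltransferases overlapped between all groups, with means of 1458 ± 66.4, 1515 ± 65.1 and 1548 ± 89.6. *Dnmt1* made up 89.9%, 88.7% and 88.7% of that sum, which therefore shows mainly *Dnmt1* and little of *Dnmt3a*. *Dnmt3a* made up 22.4% ± 3.82, 31.9% ± 8.70 and 38.6% ± 5.39 of *Dnmt3a* and *Tet2* together, per kb. This share was not among the planned ratios. It joins the 2 members that passed, which did so in opposite directions, and is likewise a description and no further test.

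**Figure D2:**
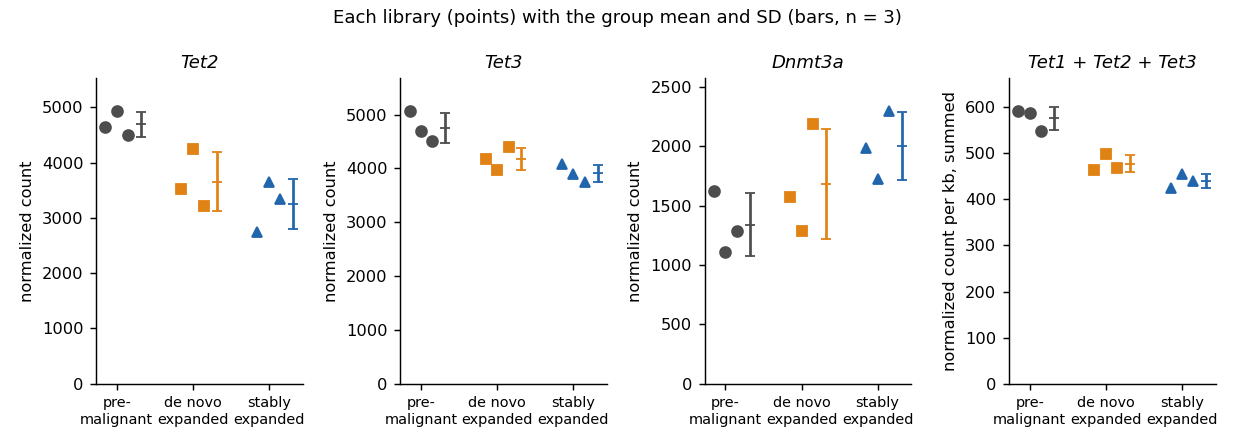
Normalized count of *Tet2*, *Tet3* and *Dnmt3a* and the summed normalized count per kb of the 3 TET genes in each library (points), with the group mean and SD (bars, n = 3). All 6 leukemic libraries lie below the pre-malignant ones for *Tet2*, *Tet3* and the sum, and for *Dnmt3a* the stably expanded libraries lie above the pre-malignant ones.

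No difference of the IDH genes from the pre-malignant libraries was detectable. *Idh1* (ENSMUSG00000025950.16, chromosome 1 from 65158616 to 65186500, minus strand), the cytosolic enzyme, had 1023, 1118 and 1309 normalized counts in the pre-malignant, 940.2, 995 and 1090 in the de novo expanded and 1026, 1175 and 1166 in the stably expanded libraries. *Idh2* (ENSMUSG00000030541.16, chromosome 7 from 80094846 to 80115392, minus strand), its mitochondrial counterpart, had 3416, 3233 and 3624 in the pre-malignant, 3671, 3588 and 3640.1 in the de novo expanded and 3012, 3437 and 3521 in the stably expanded libraries. *Idh1* overlapped between all groups, and *Idh2* in the de novo expanded libraries lay above all stably expanded libraries but not above all pre-malignant ones. Log2 fold changes in the de novo expanded libraries were -0.17 (SE 0.13, 95% interval -0.46 to 0.13) for *Idh1* and 0.11 (SE 0.09, -0.09 to 0.30) for *Idh2*. In the stably expanded libraries they were -0.03 (SE 0.12, -0.29 to 0.23) and -0.04 (SE 0.09, -0.25 to 0.16), and both of these turned positive without stably expanded library 1. The log2 ratio of *Idh1* to *Idh2* was -1.58 ± 0.141 in the pre-malignant, -1.85 ± 0.112 in the de novo expanded and -1.57 ± 0.0256 in the stably expanded libraries. It was lower in each de novo expanded library than in any other library, with the smallest possible p of 0.1 against each group in the exact permutation test and 0.525 after adjustment over the 21 ratio tests. The gap to the pre-malignant libraries was very narrow. De novo expanded library 3 had 1208 reads of *Idh1* and 4036 of *Idh2*, and pre-malignant library 1 had 974 and 3251.

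*Asxl1* (ENSMUSG00000042548.14, chromosome 2 from 153345829 to 153404007, plus strand) varied little, with 1.19-fold between the lowest and the highest library. It had 2009, 2263 and 2066 normalized counts in the pre-malignant, 2362, 2381 and 2243 in the de novo expanded and 2285, 2267 and 2246 in the stably expanded libraries, and the groups overlapped at pre-malignant library 2. Its log2 fold change was 0.16 (SE 0.09, 95% interval -0.05 to 0.37) in the de novo expanded and 0.10 (SE 0.09, -0.09 to 0.30) in the stably expanded libraries. The gene *2500004C02Rik* on the opposite strand shares 197 exonic bases with *Asxl1* and had 7 to 42 reads per library. *Dnmt3aos* shares 133 with *Dnmt3a* (0 to 4 reads), and *Gm42567* shares 43 with *Tet2* (0 to 10 reads). The members themselves had 1672 to 2731 (*Asxl1*), 1190 to 2429 (*Dnmt3a*) and 2491 to 5299 reads (*Tet2*).

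**Figure D3:**
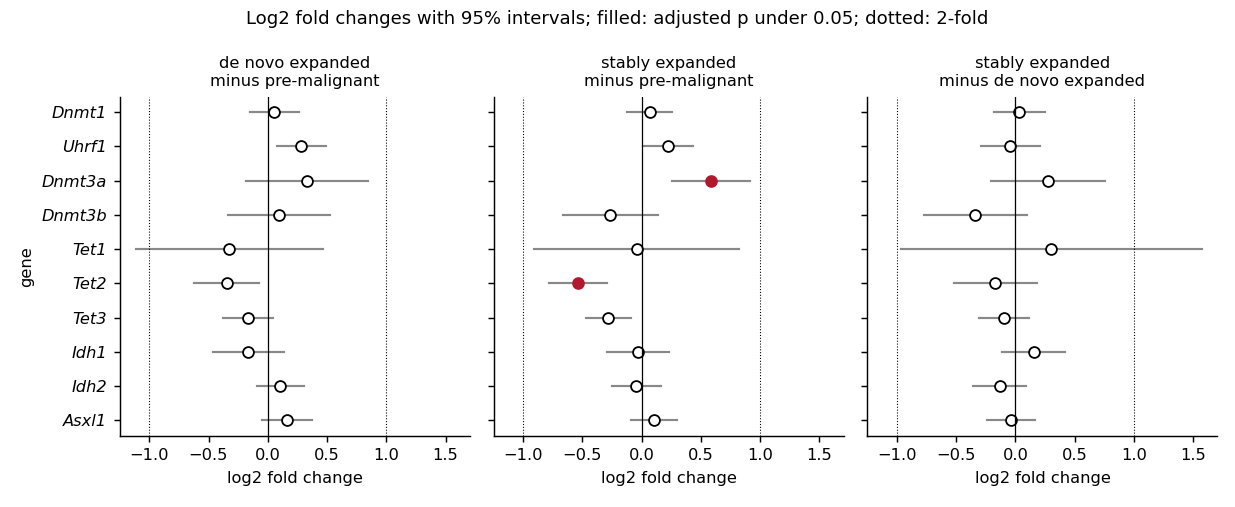
Log2 fold change (points) with its 95% interval (lines) of each member in the 3 comparisons. Filled points mark an adjusted p-value under 0.05, which *Dnmt3a* and *Tet2* reached in the stably expanded against the pre-malignant libraries, and no point reaches the dotted lines at 2-fold.

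As a set, the 10 members were not called in any comparison. Between the de novo expanded and the pre-malignant libraries, 0 of 10 were called, as were 0.0% of the 14195 genes tested with limma. At an unadjusted p under 0.05, *Uhrf1* was higher and *Tet2* lower, against 5.99% and 5.26% of all genes in these directions, while DESeq2 and edgeR also gave 0 members at an adjusted p under 0.05. On the scaling of this table the groups did not overlap in 5 members, 3 higher (*Uhrf1*, *Idh2* and *Asxl1*) and 2 lower (*Tet2* and *Tet3*), against 10.6% and 8.5% of all genes. For *Idh2* and *Asxl1* this gap was narrow and closed on the scaling over 9 libraries used above. The median log2 fold change of the members was 0.07, beside 0.01 for all genes tested.

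Between the stably expanded and the pre-malignant libraries, 0 of 10 members were called, against 2.75% of 13968 genes. Without the fold limit, *Dnmt3a* passed upward and *Tet2* downward, where 4.34% of all genes passed upward and 3.61% downward. At an unadjusted p under 0.05, *Dnmt3a* and *Uhrf1* were higher and *Tet2* and *Tet3* lower, against 13.2% and 12.3% of all genes. The same 4 genes did not overlap between the groups, which was the case for 16.1% of all genes upward and 14.6% downward. With 2 of 10 members in each direction, these counts lie near the background. The median log2 fold change was -0.04, beside 0.00 for all genes.

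Between the stably and the de novo expanded libraries, 0 of 10 members were called, against 0.00727% of 13758 genes. No member had an unadjusted p under 0.05, against 2.72% of all genes upward and 2.11% downward, and DESeq2 and edgeR gave 0 members at an adjusted p under 0.05. The groups did not overlap in 1 member, *Idh2*, which was lower in the stably expanded libraries, against 4.66% of all genes upward and 4.95% downward. Log2 fold changes lay between -0.34 (*Dnmt3b*, SE 0.19) and 0.30 (*Tet1*, SE 0.54). For *Tet2* it was -0.17 (SE 0.15, 95% interval -0.52 to 0.18) and for *Dnmt3a* 0.28 (SE 0.20, -0.20 to 0.75). A difference between the leukemic groups in these genes was thus not detectable in 3 against 3 libraries.

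Partners of these genes, related pathways, germline genes silenced by promoter methylation and cell cycle markers were examined in 8 lists. The lists held 123 genes, of which 101 were tested. With limma, none of them was called in any of the 3 comparisons. An adjusted p below 0.05 alone was reached by 5 genes, all higher in the stably expanded than in the pre-malignant libraries, namely *Mbd2*, *Hdac1*, *Lig1*, *Ccne2* and *Rrm2*. Of these, *Ccne2* and *Rrm2* are cell cycle markers and not partners. These 5 of 101 stand beside 4.34% of all genes that passed upward, so their number lies near the background. They also passed with edgeR, which gave 6 genes, and with DESeq2, which gave 10. The sixth edgeR gene was *Ehmt1*, a histone methyltransferase, which was lower (-0.36, adjusted p = 0.0509 from limma) and passed with DESeq2 too. *Sdha*, *Mat2b*, *Cdca7l* and *Mcm3* passed with DESeq2 alone. Except by the rule on the smallest p-values, these genes are named after their values were seen. At an unadjusted p under 0.05, 23 genes were higher and 6 lower in the stably expanded than in the pre-malignant libraries, against 13.2% and 12.3% of all genes. Of the 23 higher genes, 8 were cell cycle markers. For the de novo expanded against the pre-malignant libraries, 0 genes passed an adjusted p of 0.05 with any of the 3 tools, and 19 higher and 3 lower genes had an unadjusted p under 0.05 with limma, against 5.99% and 5.26% of all genes. Of the 19 higher genes, 5 were cell cycle markers. When the leukemic groups were compared, limma and edgeR gave 0 and DESeq2 gave 1, *Cxxc5*, while 1 higher and 2 lower genes had an unadjusted p under 0.05 with limma, against 2.72% and 2.11%. Over all genes, 7242 of 14195 were higher in the de novo expanded and 7060 of 13968 in the stably expanded than in the pre-malignant libraries. "Passed" refers to limma in what follows. Values below are log2 fold changes, given for each list with the genes of smallest unadjusted p.

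Of 15 tested partners of DNMT and UHRF1, 2 passed in the stably expanded against the pre-malignant libraries. *Hdac1*, a histone deacetylase, was at 699, 666 and 696 normalized counts in the pre-malignant and 1096, 865 and 892 in the stably expanded libraries (log2 fold change 0.46, SE 0.12, adjusted p = 0.0399 from limma). *Lig1*, the replicative DNA ligase to which UHRF1 binds, was at 2958, 3154 and 3213 in the pre-malignant and 4069, 3588 and 4161 in the stably expanded libraries (0.34, SE 0.09, adjusted p = 0.0452). The list had 11 of 15 genes higher, with a median of 0.17 beside 0.00 for all genes. In the de novo expanded libraries 11 of 15 were also higher, with a median of 0.14, and *Lig1* (0.33) and *Cdca7l* (0.36), a relative of the chromatin factor *Cdca7*, had the smallest p, with adjusted p-values of 0.360 and 0.372. Between the leukemic groups these were *Dnmt3l* (0.52), the catalytically inactive cofactor of DNMT3A, and *Hdac1* (0.41).

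Of 11 readers of CpG methylation or unmethylated CpG, *Mbd2* was higher in the stably expanded libraries. This methyl-CpG-binding protein recruits the NuRD repressor complex. Its normalized count was 1333, 1213 and 1319 in the pre-malignant, 1284, 1372 and 1679 in the de novo expanded and 2136, 1913 and 2176 in the stably expanded libraries. Each stably expanded library thus lay above all other libraries. The log2 fold change was 0.69 (SE 0.10, adjusted p = 0.00455 from limma) against the pre-malignant and 0.53 (SE 0.13, adjusted p = 0.891) against the de novo expanded libraries. *Zbtb4*, a zinc finger reader, was at 0.60 (adjusted p = 0.0832) in the stably expanded and 0.58 (0.439) in the de novo expanded libraries, *Mbd3* at 0.25 (0.437) in the latter, and *Cxxc1* at -0.26 between the leukemic groups. The median of the list was 0.05, 0.03 and 0.04 in the comparisons of de novo expanded with pre-malignant, stably expanded with pre-malignant and stably with de novo expanded libraries.

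Of 20 TET partners and base excision genes, 16 were tested and none passed. *Wt1* and *Nanog*, which encode factors known to bind TET proteins, had at most 3 reads in every library. *Cxxc5*, a CXXC-domain protein linked to *Tet2*, had the largest estimate, with log2 fold changes of 1.09 (adjusted p = 0.414 from limma) in the de novo and -2.20 (0.0706) in the stably expanded against the pre-malignant libraries, and -3.27 (0.891) between them, from means of 4.68 to 47.6 normalized counts. *Apex1*, the abasic site endonuclease, was at 0.62 (0.121) in the stably expanded libraries, *Lig3* at 0.31 (0.410) in the de novo expanded and *Parp1* at -0.28 (0.891) between the leukemic groups. The medians were 0.01, -0.06 and -0.05.

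In isocitrate and alpha-ketoglutarate metabolism, 15 of 18 tested genes were higher in the de novo expanded and 13 in the stably expanded than in the pre-malignant libraries, with medians of 0.14 and 0.15. None passed with limma, and *Sdha* passed with DESeq2 in the stably expanded libraries. *Idh3a*, a subunit of the NAD-dependent isocitrate dehydrogenase, was at 0.36 (adjusted p = 0.412 from limma) in the de novo expanded libraries. In the stably expanded libraries *Sdha* was at 0.32 (0.0545) and *Idh3a* at 0.34 (0.0746). Between the leukemic groups the median was 0.01, with *Glud1* at 0.29 and *Bcat2* at 0.16.

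Of 9 tested genes of the BAP1 and ASXL complex, none passed, with medians of -0.03, -0.08 and 0.03. *Mbd5* was at -0.57 (adjusted p = 0.408 from limma) in the de novo and -0.34 (0.142) in the stably expanded libraries, *Asxl2* at -0.12 (0.660) in the former and *Ogt*, the O-GlcNAc transferase, at -0.39 (0.133) in the latter. Between the leukemic groups *Ogt* was at -0.22 and *Mbd5* at 0.25. The 13 genes of the S-adenosylmethionine cycle, which supplies the methyl group, had medians of 0.21, 0.10 and -0.03. *Mat2b*, a regulatory subunit of methionine adenosyltransferase, was at 0.37 (0.417) in the de novo and 0.43 (0.0572) in the stably expanded libraries. *Ahcyl2* was at 0.26 (0.174) in the stably expanded libraries, and between the leukemic groups *Ahcyl2* was at 0.38 and *Ahcy* at -0.22.

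Of 18 germline genes that promoter methylation is known to silence in somatic cells, only *Ddx4*, *Stag3* and *Piwil2* were read enough to be tested, and 8 had at most 3 reads in every library. The summed level of the list was 334 to 493 normalized counts in the pre-malignant, 181 to 749 in the de novo expanded and 326 to 509 in the stably expanded libraries. *Stag3* was at 0.26 (adjusted p = 0.863 from limma) and *Ddx4* at 0.28 (0.880) in the de novo expanded libraries, at 0.56 (0.318) and 0.25 (0.517) in the stably expanded libraries, and *Piwil2* at -0.98 and *Stag3* at 0.32 between the leukemic groups. No difference was detectable in these genes.

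All 18 cell cycle markers were tested. In the de novo expanded libraries 18 of 18 were higher than in the pre-malignant, with a median log2 fold change of 0.24, and in the stably expanded libraries 17 of 18, with a median of 0.22. None passed in the former, where *Ccne2* (0.43) and *Mcm3* (0.27) had the smallest p, with adjusted p-values of 0.399 and 0.402 from limma. In the stably expanded libraries *Ccne2*, a cyclin of S phase entry, was at 645, 525 and 645, compared with 417, 358 and 376 in the pre-malignant (0.65, SE 0.14, adjusted p = 0.0187 from limma). *Rrm2*, a subunit of ribonucleotide reductase, was at 2832, 2673 and 2028, compared with 1577, 1675 and 1960 (0.52, SE 0.13, adjusted p = 0.0402). Between the leukemic groups the median was 0.02, with *Ccne2* at 0.25 and *Mcm4* at 0.12.

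**Figure D4:**
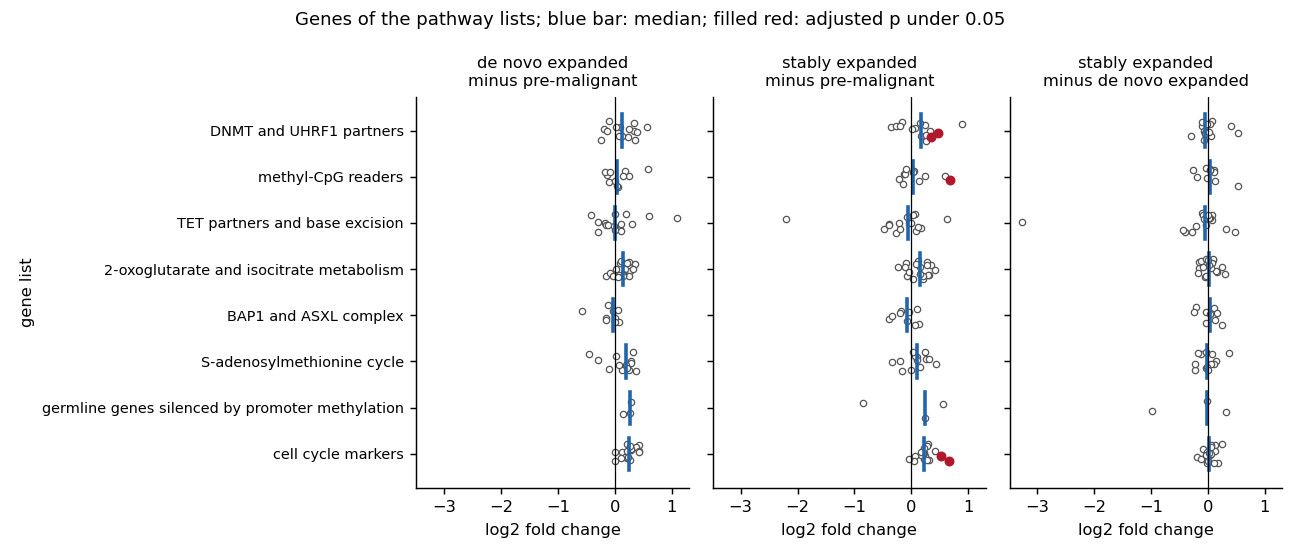
Log2 fold change of each tested gene (points) of the 8 lists in the 3 comparisons, with the median of each list (blue bars). Filled red points, which mark an adjusted p-value under 0.05, occur only in the stably expanded against the pre-malignant libraries, for *Hdac1*, *Lig1*, *Mbd2*, *Ccne2* and *Rrm2*.

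Genes whose level followed a member most closely over the 9 libraries were looked up among 10335 genes with a mean of at least 50, by Pearson's r of log2(CPM + 1). The libraries fall into 3 groups, so that r also holds group differences, and it is given as a description. How high the largest r among 10335 unrelated genes would be over only 9 libraries was not tested. For *Tet2* the closest genes were *Ehmt2* (r = 0.983), *Ankrd11* (0.981) and *2010111I01Rik* (0.975), for *Tet3* *Hectd4* (0.977), *Tcf20* (0.965) and *Atxn7l1* (0.958), and for *Tet1* *D230049E03Rik* (0.949), *Gmip* (0.934) and *Parp11* (0.912). *Ehmt2* encodes the histone methyltransferase G9a. For *Dnmt1* they were *Ssbp4* (0.953), *Psme1* (0.940) and *Fen1* (0.936), for *Uhrf1* *Umps* (0.988), *Psmd13* (0.981) and *Ppp1r18* (0.968), for *Dnmt3a* *Abhd13* (0.964), *Kctd7* (0.957) and *Sc5d* (0.950) and for *Dnmt3b* *Abi3* (0.952), *Fbxl6* (0.919) and *Wdr3* (0.904). *Fen1* and *Umps* encode the flap endonuclease of DNA replication and an enzyme of pyrimidine synthesis. For *Idh1* they were *Dctn4* (0.948), *Sec31a* (0.933) and *Srp72* (0.910), for *Idh2* *Gm14165* (0.921), *Ccl9* (0.874) and *Eef1b2* (0.860) and for *Asxl1* *Coq2* (0.964), *Otub1* (0.954) and *Iqgap3* (0.943).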

How the data were processed

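RNA-Seq of color-coded cKit+CD11bdim splenocytes was analysed in 9 libraries, 3 per group. Per the labels and the paper, libraries were made from total RNA with the SMARTer Stranded Total RNA-Seq Pico kit, and the authors processed reads with nf-core/rnaseq (Trim Galore 0.6.4, STAR 2.6.1d, featureCounts 1.6.4) on GRCm38.p6 with GENCODE annotation, and then with DESeq2. Whether counting used the strand is not given in the sources used here. The deposited values are a signal that the authors made by dividing read counts per gene by DESeq2 size factors of the 6 libraries of a table (normalized counts), in 3 tables of 55401 genes, 1 per comparison. The deposited exon length per gene gave the levels per kb. The deposited fold changes, p-values and test statistics of the authors were not used.

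In every library the normalized counts were multiples of 1 step. Read numbers recovered from that step were whole for at least 99.98% of nonzero values (tolerance 0.05 reads), and a library's reads did not differ between its tables. Levels per library are these reads divided by size factors over all 9 libraries. Tests used the normalized counts of each table, in limma with an empirical Bayes trend. Values were log2(normalized count + 1), genes with a mean below 10 normalized counts were left out, and two-sided p-values were adjusted after Benjamini and Hochberg over all genes tested. Ratios of members were tested with an exact permutation test of 3 against 3 libraries, two-sided, which cannot give a p below 0.1. The pre-malignant libraries are 3 clones of 1 mouse, and the stably expanded libraries are 1 clone from 3 mice. Spread within the former is thus between clones and within the latter between mice. The p-values measure only the spread between these libraries.

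Alternatives tried were pseudocounts of 0.1 and 5, no filter or a minimum mean of 50, centring of libraries on their median, quantile normalization, DESeq2 and edgeR's quasi-likelihood test (TMM) on the recovered reads, 1 fit of all 9 libraries, dropping the fold limit, and omitting each library once. The fit of all 9 libraries also scaled reads by library totals instead of size factors, so that fit and scaling changed together. The members, the 8 pathway lists and the marker lists were chosen with earlier results of these data known. Named genes of a pathway list are those called in any comparison and otherwise the 2 with the smallest unadjusted p in each comparison. Some items that this rule or the design would name are not reported here. For each member the 3 genes with the highest Pearson's r were named. Promoter windows are from RefSeq on GRCm38.p6, matched by symbol for 10 of 10 members. On simulated data with 100 genes changed 2-fold, limma recovered 34 between de novo expanded and pre-malignant, 66 between stably expanded and pre-malignant and 29 between the leukemic groups, and of the 99, 100 and 99 tested genes changed 4-fold, 81, 94 and 79. In these simulations 12, 8 and 9 unchanged genes also had an adjusted p under 0.05, with 14180, 13921 and 13710 genes in the test. R 4.3.3, limma 3.58.1, edgeR 4.0.16, DESeq2 1.42.0, Python 3.11.15, matplotlib 3.10.9, scipy 1.17.1, numpy 2.4.6 and pandas 2.3.3 were used.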

Additional observations from a re-analysis of the deposited data

How the results depend on the processing

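The fold change of each member was recomputed under 15 alternatives in each comparison. Of 450 values, 433 kept their direction. The other 17 came from 10 fold changes. Under quantile normalization *Dnmt1* turned to -0.045 and -0.082 in the de novo and stably expanded against the pre-malignant libraries and to -0.034 between the leukemic groups, and to -0.011 there without de novo expanded library 3. With DESeq2 and edgeR, *Tet1* turned to 0.13 in the stably expanded libraries. Leaving out 1 library turned further members. In the de novo expanded libraries *Dnmt3b* turned to -0.034 without pre-malignant library 1 (range -0.034 to 0.219 over the 6 omissions) and *Tet1* to 0.027 without de novo expanded library 1 (-0.666 to 0.027). In the stably expanded libraries *Tet1* turned to 0.034 without pre-malignant library 2 and 0.54 without stably expanded library 2 (-0.345 to 0.54), *Idh1* to 0.066 without pre-malignant library 3 and 0.035 without stably expanded library 1 (-0.109 to 0.066), and *Idh2* to 0.026 without stably expanded library 1 (-0.0869 to 0.026). Between the leukemic groups the value of *Tet1* was -0.051 when de novo expanded library 1 was left out and -0.0013 for stably expanded library 1 (-0.051 to 0.881), that of *Uhrf1* was 0.00024 and 0.025 when de novo expanded library 1 or stably expanded library 3 was left out (-0.119 to 0.025), and the range of *Dnmt1* was -0.011 to 0.0702. The cause was not tested.

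No member was called under any alternative with the 2-fold limit. Without it, 2 members passed in the stably expanded against the pre-malignant libraries, a count chosen for these alternatives after seeing the data. It was 0 in 1 fit of all 9 libraries and ranged from 0 to 2 when 1 library was left out, with 0 without pre-malignant library 2. It was 2 under quantile normalization as well, but then of *Tet2* and *Tet3*, and 3 with DESeq2, which added *Tet3*. In the other comparisons it was 0 throughout. No paired analysis was possible because no label links a column to a mouse or clone.

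Over all genes, the number called against the pre-malignant libraries in the stably expanded libraries was 384, and 6 in 1 fit of all 9 libraries, 1110 without the fold limit and 206 to 240 without pre-malignant library 1, 2 or 3 or stably expanded library 1. In the de novo expanded libraries it was 0, 5 in 1 fit of all 9 libraries, 5 without a filter, 62 with DESeq2 and 214 without de novo expanded library 3. Between the leukemic groups it was 1, 2 in 1 fit of all 9 libraries, 2 without a filter or without de novo expanded library 1, 32 with DESeq2, 508 without de novo expanded library 3, and 0 when any stably expanded library was left out. The median of all genes shifted to -0.18 and -0.31 in the comparisons with the pre-malignant libraries when no genes were filtered. *Tet1* had the fewest reads of the members, 82 to 317 per library.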
